A study of Mus musculus with 23 samples.

Results

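Ighm encodes the constant region of the heavy chain of immunoglobulin M (IgM). Its transcript was examined here in the hippocampus of young and middle-aged mice, beside the other immunoglobulin transcripts that the same arrays measured. The members were found by symbol in the platform annotation. 16 probe sets carried the symbol Ighm alone, of 12422 non-control probe sets in all. A further 59 were annotated to other immunoglobulin heavy or light chain segments or to the J chain, and 3 of these also listed Ighm among several symbols. Ighm was chosen because its signal differed between the ages in these data, so its age difference is given as a description with no test. The other immunoglobulin sets were taken by symbol alone and were tested.

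RNA of the whole hippocampus was measured on 1 array per animal in 23 male C57BL/6JNIA mice, 14 of them 15 months old and 9 of them 2 months old. All of the mice, at both ages, had gone through Morris water maze training, a spatial memory task, before they were killed. No genotype or drug separated the groups, and the comparison asks how hippocampal transcripts differ between the ages. Signals were computed with MAS5, are linear, and had a common trimmed mean across arrays. Median signals per array ran from 154.3 to 187.6, and the correlation between any pair of arrays in log2 signal was 0.943 to 0.983. One array stood apart. The 25th percentile of 15-month replicate 13 was 53.4, against 30.2 to 41.8 on the other arrays. Its median log2 shift from the 2-month mean was 0.39 over all 4969 non-control sets of low signal and 0.44 over the 62 immunoglobulin sets among them.

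An IgM molecule consists of heavy chains of the mu type paired with kappa or lambda light chains, and the secreted pentamer is held together by the J chain. B cells carry IgM on their surface as part of the antigen receptor, together with the signalling chains encoded by Cd79a and Cd79b, and plasma cells secrete it. The brain parenchyma normally holds few such cells, while the meninges and the choroid plexus are known to house some. Bound IgM recruits C1q and so starts the classical complement pathway.

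Ighm signal was higher at 15 months in the brighter of its tested probe sets, whose suffix (_s_at) marks probes that related sequences can share. The 14 mice of 15 months had signals from 497.2 to 910.3, with a median of 721. The 9 mice of 2 months had signals from 329.8 to 500.7, with a median of 426. The ages overlapped by 1 mouse on each side. The lowest 15-month mouse, replicate 12, lay just under the highest 2-month mouse, replicate 2, and the other 13 mice of 15 months were above every 2-month mouse. The mean signals were 692 ± 131 (SD, n = 14) and 408 ± 57.5 (SD, n = 9). On the scale of log2(signal + 16) the difference was 0.73 ± 0.10 (SE; 95% interval 0.52 to 0.94), a 1.66-fold higher level, and it ranked 10 from the top among the 7453 probe sets bright enough to be tested. Every one of the 14 older mice exceeded the mean of the younger. At a false discovery rate of 0.05 in limma, 0.335% of those 7453 sets were called higher at 15 months and 0.0403% lower, and since Ighm was chosen on this contrast nothing is read from its place among them. In bulk tissue, more cells that hold a transcript and more transcript per cell cannot be told apart.

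Within the older group the mice spread more widely on this probe set than within the younger, with an SD of 0.27 against 0.20 on the log2 scale. The highest signals were 910.3 in 15-month replicate 11 and 896.3 in replicate 5, and the lowest were 497.2 in replicate 12, 518.8 in replicate 8 and 522.3 in replicate 2. Replicate 13, whose array stood apart, had a signal of 766.4, inside the range of its group, and without it the log2 difference between the ages was 0.72. No single mouse carried the difference. Leaving out each mouse in turn gave log2 differences between 0.69 and 0.77.

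The second Ighm probe set above the filter was dimmer and its age difference smaller. Its signals ran from 89.5 to 198.0 with a median of 127 at 15 months, and from 76.8 to 116.9 with a median of 90.8 at 2 months. The groups overlapped broadly, with 8 of 14 older mice above every younger one and 13 of 14 above the 2-month mean. The means were 129 ± 27.6 (SD, n = 14) and 93.4 ± 13.9 (SD, n = 9), a log2 difference of 0.39 ± 0.11 (SE; 95% interval 0.16 to 0.62) or 1.31-fold. Replicate 5 was the highest of the 15-month mice here, at 198.0, and the second highest on the brighter set. Replicates 7 and 13 were the lowest here, at 89.5 and 95.4, although on the brighter set both lay above their group's median.

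**Figure D1:**
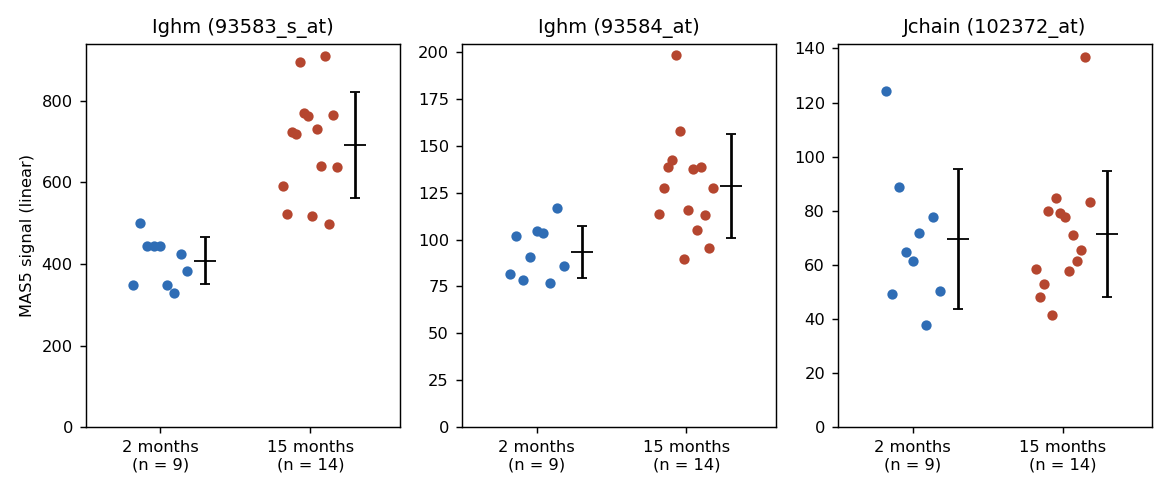
MAS5 signal of both Ighm probe sets above the filter and of the J chain set, 1 point per mouse, with the mean and SD of each age beside the points; each vertical axis starts at 0 and has its own range. On the brighter Ighm set (left) 13 of 14 mice of 15 months lie above every 2-month mouse, on the dimmer one (middle) 8 of 14 do, and on the J chain set (right) 1 does.

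The remaining 14 probe sets annotated to Ighm alone were too dim to enter the test. Their mean signals over all mice lay between 7.23 and 41.6, under the filter at a signal of 91.7. Without the filter, their log2 differences ran from -0.29 to 0.30 with a median of -0.07, 5 above 0 and 9 below. Which stretch of the transcript each set reads is not given in the sources used here.

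No light chain set above the filter showed a difference as large as that of either tested Ighm set. Of 33 kappa sets 6 passed the filter, and none was called in either direction (limma with Benjamini-Hochberg adjustment, lowest adjusted p = 0.51), nor was any under an unadjusted p of 0.05. Over all 11 tested immunoglobulin sets other than Ighm the count called was 0, beside 0.376% of all tested sets, also with the Mann-Whitney test. At that share a count of 0 says little about so few sets. Igkv4-91, a kappa variable segment, had signals of 219 ± 49.8 (SD, n = 14) at 15 months and 230 ± 43.8 (SD, n = 9) at 2 months, with a log2 difference of -0.08 (95% interval -0.33 to 0.17; adjusted p = 0.824). Igkv7-33 was at 119 ± 45.0 and 139 ± 35.3, a difference of -0.23 (95% interval -0.57 to 0.10; adjusted p = 0.580), with 4 of 14 older mice above the 2-month mean. Igkv8-30 was at 98.1 ± 21.6 and 92.3 ± 20.1, a difference of 0.07 (95% interval -0.19 to 0.34; adjusted p = 0.842), with 9 of 14 above.

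The other 3 tested kappa sets were annotated to several symbols, each including the kappa constant gene Igkc, so no gene is named for them. One of them, with 5 symbols, varied most between 15-month mice of the 13 tested immunoglobulin sets, with an SD of 0.64 on the log2 scale. Its signals ran from 69.4 to 326.7 at 15 months, with a median of 164, and from 98.9 to 357.6 at 2 months, with a median of 168, so the ages overlapped almost fully. Its log2 difference was -0.19, with a wide 95% interval of -0.66 to 0.28 (adjusted p = 0.780). The other two, whose probes can be shared within a sequence family, had differences of -0.20 (95% interval -0.46 to 0.05) and -0.14 (95% interval -0.44 to 0.15). The highest upper limit among the 11 other sets was 0.44, against the lower limit of 0.52 for the brighter Ighm set. That upper limit, of Ighg3, is above the estimate of 0.39 for the dimmer one, so a difference of that smaller size is inside the interval of 1 of the 11 sets. Since Ighm was chosen for its age difference, its limits are set beside the others as a description and not as a test.

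**Figure D2:**
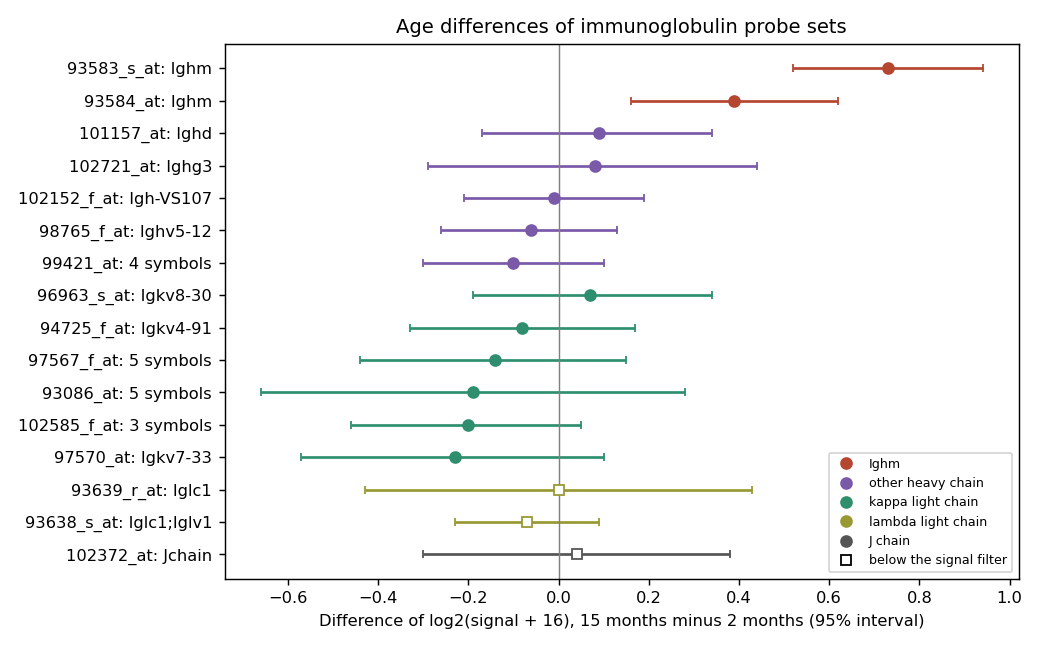
Difference of log2(signal + 16) between the ages for the 13 immunoglobulin probe sets above the filter (filled circles) and the J chain and lambda sets below it (open squares, from the fit without the filter), with 95% intervals. The intervals of both Ighm sets lie above 0, and those of the other 14 sets include 0. Ighm was chosen for its age difference, so its intervals are a description and not a test.

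J chain and lambda light chain transcripts were dim at both ages. The J chain set had signals from 41.6 to 136.7 at 15 months, with a median of 68.2, and from 37.7 to 124.4 at 2 months, with a median of 64.8. Of the 14 older mice 7 were above the 2-month mean. The highest 15-month value was that of replicate 13, the array that stood apart. Without the filter the log2 difference of the J chain was 0.04 (95% interval -0.30 to 0.38; limma adjusted p = 0.966). The lambda constant gene Iglc1 was at 94.6 ± 46.2 (SD, n = 14) and 91.6 ± 35.4 (SD, n = 9), with a difference of -0.00 (95% interval -0.43 to 0.43), and again replicate 13 was highest, at 221.1. A second lambda set, with 2 symbols, had signals of at most 5.4 in any mouse and gives no usable level.

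Heavy chain sets of other classes were likewise without a call. The IgD heavy chain gene Ighd, whose constant region is spliced to the same variable region as that of Ighm in naive B cells, had signals from 155.2 to 305.2 (median 208) at 15 months and from 121.3 to 263.2 (median 207) at 2 months. Its log2 difference was 0.09 (95% interval -0.17 to 0.34; adjusted p = 0.815). Ighg3, the heavy chain of an IgG class, was at 108 ± 30.1 and 106 ± 47.4 in its brightest set, a difference of 0.08 (95% interval -0.29 to 0.44; adjusted p = 0.884). The variable segments Igh-VS107 and Ighv5-12 had differences of -0.01 and -0.06 (adjusted p = 0.973 and 0.829). Another tested set lists 4 heavy chain symbols including Ighm. It was at 648 ± 154 and 685 ± 69.8, a difference of -0.10 (95% interval -0.30 to 0.10), with only 1 of 14 older mice, replicate 13 at 1153.8, above the 2-month mean.

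Of the 48 immunoglobulin sets other than Ighm below the filter, 25 had log2 differences above 0 and 23 below, with a median of 0.01, beside -0.02 for all 12422 sets in the fit without the filter. None was called in that fit, in which 0.217% of all sets were (0.193% higher and 0.0242% lower), and 1 had an unadjusted p under 0.05. That was a set of Igkv8-19, at 46.9 ± 14.9 and 32.1 ± 24.6 (limma adjusted p = 0.444), chosen after its value was seen. Replicate 13 was the highest 15-month mouse on 29 of the 62 immunoglobulin sets below the filter, Ighm sets included, and on 1961 of all 4969 non-control sets below it.

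Set against each other in the same mouse, the brighter Ighm set and the tested kappa sets separated at 15 months. Relative to the 2-month mean, the brighter Ighm set was shifted by 0.29 to 1.14 on the log2 scale in the 14 older mice, with a median of 0.81. The mean of the 6 kappa sets was shifted by -0.37 to 0.21, with a median of -0.17, and was above 0 in 4 mice. The shift of the brighter Ighm set minus that of kappa was therefore positive in all 14 older mice, from 0.51 to 1.27, against -0.39 to 0.23 in the younger mice. The largest gap, 1.27, was in replicate 7, which had the lowest kappa mean, and the smallest, 0.51, in replicate 12, which had the lowest Ighm signal. The J chain was shifted by -0.52 to 0.89, with 7 of 14 older mice above 0. Replicate 5, with the second highest Ighm signal, had the lowest J chain value of its group. The dimmer Ighm set separated less, with shifts of -0.04 to 0.98 and a median of 0.40 in the older mice. Only in replicate 13 was its shift, 0.04, below that of the kappa mean, 0.21. Its shift was below that of the J chain in replicate 7 (-0.04 against 0.21) and in replicate 13 (0.04 against 0.89), and above it in the other older mice. Since Ighm was chosen for its age difference, these shifts are a description and were not tested.

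**Figure D3:**
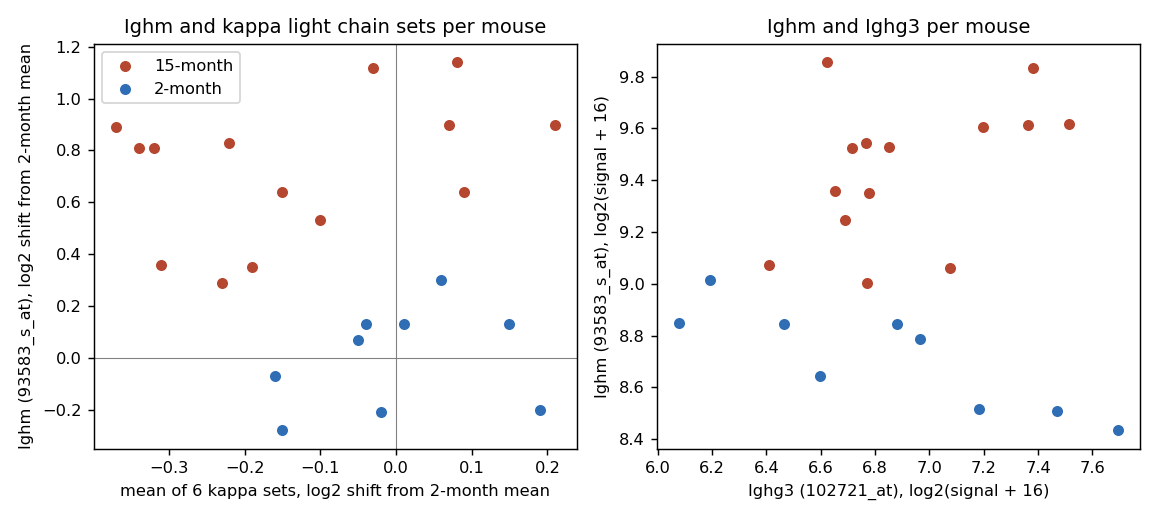
Left, the log2 shift of the brighter Ighm set from the 2-month mean against that of the mean of the 6 kappa sets, 1 point per mouse; right, log2(signal + 16) of Ighm against that of the brightest Ighg3 set. On the left the 15-month mice lie at or above 0.29 on the Ighm axis with kappa shifts on both sides of 0, and on the right the 2-month points run downward (r = -0.86) while the 15-month points do not (r = 0.44).

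Whether Ighm followed other immunoglobulin sets between mice of one age does not depend on the contrast by which it was chosen. Log2 values of the brighter Ighm set were related to those of the dimmer one and of the 11 other tested sets within each age, 24 relations in all. None had an adjusted p under 0.05 for Pearson's r, and 1 had an unadjusted permutation p under 0.05. Both Ighm sets correlated at r = 0.40 in the 15-month mice (rho = 0.39; permutation p = 0.155 and 0.170, adjusted p = 0.621 and 0.661) and at r = 0.41 in the 2-month mice (rho = 0.22; exact permutation p = 0.264 and 0.581, adjusted p = 0.708 and 0.845). Without the 2 mice farthest from the Ighm median, r was 0.36 and 0.44. At 15 months r ranged from -0.20 to 0.44 over the 12 sets, with a median of 0.35. The highest values, 0.44 each, were those of Igh-VS107, Ighg3 and Igkv4-91 (permutation p = 0.116, 0.117 and 0.113, each adjusted p = 0.621; rho = 0.43, 0.37 and 0.43). The r of Igkv4-91 rested on the 2 mice farthest from the Ighm median, replicates 8 and 12, and was -0.00 without them. For the set with 4 heavy chain symbols, rho was 0.67 (permutation p = 0.0111, adjusted p = 0.133) and r was 0.39 (permutation p = 0.184, adjusted p = 0.632) at 15 months.

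The 2-month mice held the strongest of these relations, an inverse one with Ighg3. The 2-month mouse with the lowest Ighm signal, replicate 7 at 329.8, had the highest Ighg3 signal, 191.1. The mouse with the highest, replicate 2 at 500.7, had an Ighg3 signal of 57.1. Pearson's r was -0.86 (exact permutation p = 0.00446, adjusted p = 0.107) and Spearman's rho was -0.90 (exact permutation p = 0.00203, adjusted p = 0.0487) over 9 mice. Without replicates 6 and 7, farthest from the median of Ighm, r was -0.69. Among the 6 dimmer Ighg3 sets r with Ighm at 2 months ran from -0.59 to 0.34, with 3 below 0. At 15 months the brightest Ighg3 set had r = 0.44 (rho = 0.37, permutation p = 0.117 and 0.193, adjusted p = 0.621 and 0.661), and the difference between the ages was not tested.

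Genes of the cells that make IgM were few above the filter. Of 17 listed B cell genes 16 were on the arrays and 7 bright enough to be tested. None was called in either direction, beside 0.376% of all tested sets, a share at which a count of 0 says little about so few genes. Their median log2 difference was -0.02, as over all tested sets. The signalling chain Cd79a, the membrane protein Ms4a1 and the tetraspanin Cd37, singled out here as B cell genes after their values were seen, had differences of 0.06, -0.02 and -0.00 (limma adjusted p = 0.947, 0.969 and 0.998). Blnk, an adaptor downstream of the B cell receptor, had the lowest p of the list, at 168 ± 44.6 and 122 ± 28.1 (log2 difference 0.41 ± 0.14 SE, adjusted p = 0.209, with 13 of 14 older mice above the mean of the younger). Pax5, the transcription factor of B cell identity, had a difference of -0.31 (adjusted p = 0.686). B cell genes below the filter ran from -0.32 for Cd72 to 0.41 for Fcer2a (limma adjusted p = 0.666 and 0.622 without the filter). Between them were Ebf1 at 0.24, Cd79b at 0.15, Pou2af1 at 0.10 and Cr2 at 0.08. Blk, Vpreb1 and Cd22 were at -0.02, -0.03 and -0.04. The summed signal of the 7 tested genes was 854 to 1522 at 15 months and 953 to 1229 at 2 months.

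Plasma cell genes were mostly below the filter, among them Prdm1, Sdc1, Irf4 and Tnfrsf17. Without the filter, Sdc1, a surface proteoglycan of plasma cells, was at 69.6 ± 27.4 (SD, n = 14) and 48.0 ± 21.2 (SD, n = 9), a difference of 0.44 (limma adjusted p = 0.527). Prdm1, Irf4, Tnfrsf17 and Fkbp11 had differences of 0.02, -0.15, 0.02 and 0.06. The 2 tested, Xbp1, a factor of the secretory programme that other cells also express, and Cd27, a receptor of the tumour necrosis factor family, had differences of -0.01 and -0.07 (adjusted p = 0.985 and 0.886). Their summed signal was 714 to 1120 at 15 months and 785 to 1061 at 2 months. Of 14 T cell genes on the arrays 3 were tested and 0 called. The T cell receptor subunits Cd3e, Cd3d and Cd3g were below the filter, Cd4 had a difference of -0.29 (adjusted p = 0.635), and Zap70, a kinase of T cell receptor signalling, one of 0.06 (adjusted p = 0.911).

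Downstream of the antigen receptor, 10 signalling genes were tested and 0 called, with a median log2 difference of 0.02. Those of lowest p were Sos1, an exchange factor for Ras, with 0.27 ± 0.12 SE (adjusted p = 0.354), and the kinase Syk with -0.19 ± 0.10 (adjusted p = 0.409). Of 3 tested receptors of immunoglobulins none was called. The cytosolic antibody receptor Trim21 had a difference of 0.12 and the IgG receptor Fcgr1 one of -0.12 (adjusted p = 0.663 and 0.786), and Pigr, which carries polymeric IgA and IgM across epithelia and was singled out after its value was seen, one of -0.07 (adjusted p = 0.807). Below the filter, Fcgr2b, the inhibitory IgG receptor, had a difference of 0.58 (95% interval 0.12 to 1.05; adjusted p = 0.389 without the filter). Fcer1a, equally below it, had one of -0.41 (95% interval -0.89 to 0.08, adjusted p = 0.621 without the filter). Fcgr3, Fcgrt and Fcer1g had -0.07, 0.02 and 0.01. The 7 tested genes of recombination and class switching had a median of -0.18 with 0 called. Msh6, a mismatch repair gene, had a difference of -0.31 and Prkdc, the catalytic subunit of a kinase of end joining, one of 0.28 (adjusted p = 0.242 and 0.336). Of 4 tested growth factor and homing genes none was called. The interleukin receptor gene Il6ra had a difference of -0.29 (adjusted p = 0.533) and the chemokine Cxcl12 one of -0.18 (adjusted p = 0.538). Members of this list below the filter ran from -0.46 for Il7r (95% interval -0.85 to -0.07, adjusted p = 0.436 without the filter) to 0.24 for Cd40.

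Markers of other cells in the dissected tissue were set beside Ighm as well. Over all 13 lists 4 of 88 tested genes were called, all higher at 15 months, beside 0.335% of all tested sets called in that direction. The lists were chosen with earlier results of these data known, so no excess is read from that count. Of 12 microglia and macrophage genes 3 were called, Ctss, Ly86 and Mpeg1, with log2 differences of 0.50, 0.62 and 0.55 (limma adjusted p = 9.34e-06, 0.00397 and 0.00494). For each of them all 14 older mice exceeded the mean of the younger. The median of the list was 0.22, and its summed signal was 6702 to 8080 at 15 months and 5422 to 6645 at 2 months, without overlap. That sum includes the called genes, among them Ctss with mean signals of 2443 and 1725. All 12 differences were above 0, but those of Csf1r, Cx3cr1 and Cd68 were only 0.01, 0.01 and 0.02. The part of these cells in the Ighm difference was not tested. Mrc1, Pf4 and Lyve1, markers of macrophages at brain borders, were below the filter. Of 11 endothelial genes Slc2a1, the glucose transporter, was called (difference 0.55, adjusted p = 0.0220). Slc2a1 no longer passed when 2-month replicate 2, 3, 4 or 5 was dropped, with a highest adjusted p of 0.0649, or with the Mann-Whitney test (adjusted p = 0.0814). The adhesion gene Cdh5 had a difference of 0.48 (adjusted p = 0.214), and the summed signal of the list was 3518 to 5890 and 3042 to 4354. The endothelial median was 0.02, with 7 differences above 0 and 4 below, the lowest being Tie1 at -0.30 and Kdr at -0.27.

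Tissues that are known to hold plasma or B cells next to the brain varied strongly between mice. The summed signal of 6 choroid plexus genes ran from 1881 to 18832 at 15 months and from 2346 to 16560 at 2 months. None was called, with a median difference of 0.28. The folate receptor gene Folr1 had a difference of 0.77 ± 0.45 SE (adjusted p = 0.506) and Cab39l one of -0.22 (adjusted p = 0.420). Of the 6 differences 5 were above 0, and only that of Cab39l was below. The largest, singled out after its value was seen, was that of Ttr, at 0.89 (95% interval -1.03 to 2.82; adjusted p = 0.729). The summed signal includes Ttr, at 1802 ± 2924 (SD, n = 14) and 1293 ± 2969 (SD, n = 9). The 16 tested genes of meninges and fibroblasts had a median difference of 0.11 and 0 calls, with a summed signal of 8457 to 25996 and 10791 to 20654. The growth factor gene Bmp6 had a difference of 0.62 and the matrix protein gene Mgp one of 0.54 (adjusted p = 0.244 and 0.354). Below the filter, the organic anion transporter gene Slc22a6 had a difference of 0.96 (95% interval 0.31 to 1.61; adjusted p = 0.304 without the filter). With the choroid plexus, meninges or red blood cell mean in the model, the Ighm difference was 0.68, 0.71 or 0.73. Whether cells housed in these tissues had a part in the Ighm difference was not tested. Blood genes were without a call. The haemoglobin gene Hba-a1 had a difference of 0.13 and Rhag, a red cell membrane gene, one of -0.04 (adjusted p = 0.681 and 0.931), and the summed signal of 3 such genes was 2643 to 5448 and 2876 to 4811. Red cell genes below the filter ran from -0.44 for Epb42 to 0.28 for Alas2. Of 12 neutrophil genes on the arrays 4 were tested and 0 called. Camp, an antimicrobial peptide gene, had a difference of -0.48 and Csf3r, a growth factor receptor gene, one of -0.21 (adjusted p = 0.247 and 0.510), with a summed signal of 800 to 1473 and 1071 to 1764 for the 4. Below the filter, Ltf and S100a9, which encode antimicrobial proteins of neutrophil granules and cytosol, differed the other way. Ltf was at 67.3 ± 26 (SD, n = 14) and 31.7 ± 18.4 (SD, n = 9), with a difference of 0.80 (95% interval 0.38 to 1.22; limma adjusted p = 0.137 without the filter) and 13 of 14 older mice above the mean of the younger. S100a9 had a difference of 0.59 (95% interval 0.24 to 0.94; adjusted p = 0.211 without the filter), with 14 of 14 above. The remaining neutrophil genes below the filter went both ways. Mpo had a difference of -0.39, Ngp and Cxcr2 each -0.15, Ly6g 0.06, S100a8 0.08 and Mmp9 0.15.

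**Figure D4:**
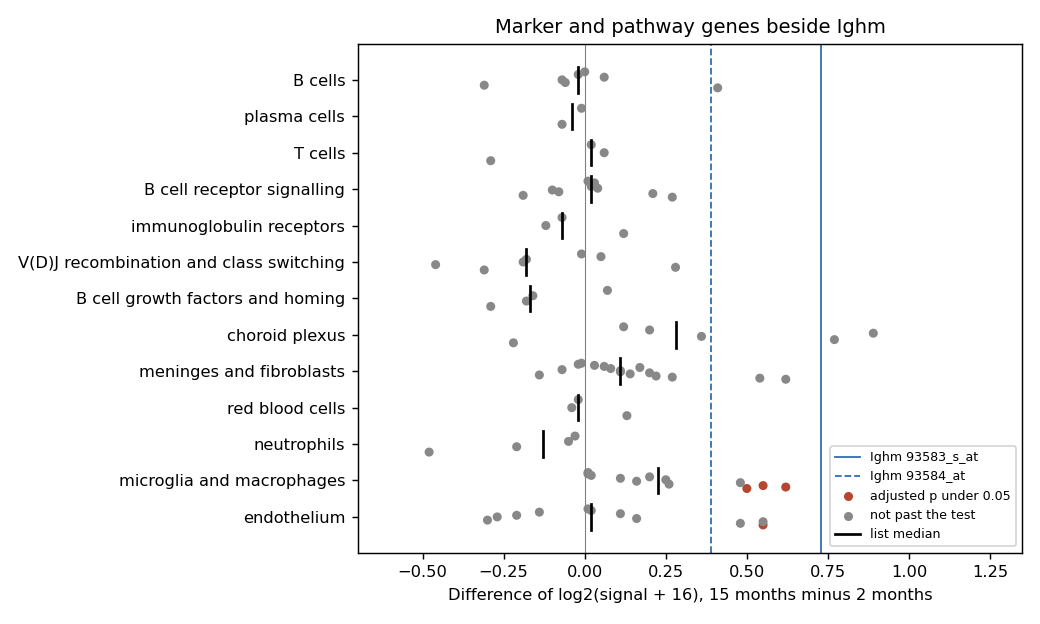
Difference of log2(signal + 16) between the ages for each tested gene of the 13 lists, 1 point per gene, in red where the adjusted p was under 0.05, with the list median as a black bar and both Ighm sets as vertical lines. The B cell and plasma cell points lie between -0.31 and 0.41 with medians near 0, and the 4 red points are 3 microglial genes and Slc2a1.

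Between mice of one age, the mean log2 signal of 12 of these lists was related to that of Ighm, a set of 24 relations chosen after the data were seen. The plasma cell list was left out, since it held only 2 tested genes. Those genes, Xbp1 and Cd27, had r = -0.51 and 0.48 with Ighm at 15 months, and -0.04 and 0.16 at 2 months, which was not tested. None of the 24 relations passed adjustment (lowest adjusted p = 0.429 for r and 0.306 for rho). The relation of largest size was that of the neutrophil genes at 2 months, with r = -0.65 (rho = -0.75; exact permutation p = 0.0613 and 0.0255, adjusted p = 0.429 and 0.306), and r was -0.24 without replicates 6 and 7. The highest positive r was that of the choroid plexus list at 15 months, 0.56 (rho = 0.45; permutation p = 0.0359 and 0.113, adjusted p = 0.429 and 0.453), and r was 0.59 without replicates 8 and 12. Microglia and macrophage genes had r = 0.47 at 15 months (rho = 0.37; permutation p = 0.0894 and 0.198, adjusted p = 0.429 and 0.593) and r = -0.50 at 2 months (rho = -0.77; exact permutation p = 0.181 and 0.0214, adjusted p = 0.725 and 0.306). Without the 2 farthest mice these were 0.40 and -0.32. B cell genes had r = 0.29 at 15 months (rho = 0.30; permutation p = 0.314 and 0.296, adjusted p = 0.769 and 0.647) and r = 0.30 at 2 months (rho = 0.52; exact permutation p = 0.426 and 0.162, adjusted p = 0.769 and 0.555). The 2-month value rested on replicates 6 and 7, without which it was -0.33, while at 15 months r was 0.26 without replicates 8 and 12.

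The genes most like Ighm in their variation between mice, by Pearson's r over 23 mice after the mean of each age was subtracted, were Ikbkb (r = 0.65), Tbxas1, Eml5, Lin9 and Slc4a2 (each 0.61), Ccl22 and Ybx1 (each 0.60) and Hebp1 (0.59), the highest of 6747 candidates. The arrays share their scaling, and with so many candidates these values are a description. Ikbkb, a kinase of the NF-kappaB pathway, had r = 0.64 over the 14 older mice and 0.71 over the 9 younger, and the chemokine Ccl22 had 0.57 and 0.68. For Lin9, a cell cycle regulator, r was 0.78 at 15 months and 0.17 at 2 months, and for Eml5 0.73 and 0.25; the differences between the ages were not tested. None of the 8 was called between the ages, with log2 differences from -0.15 to 0.02. The second Ighm set had r = 0.40 on the same measure, which ranked 249 from the top among the 7452 other tested sets.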

How the data were processed

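Biotin-labelled RNA was hybridised to 1-colour Affymetrix arrays. The deposited intensities are linear signals per probe set. The submitters' processing notes, per the labels, name MAS5 for them, and its version and settings are not stated there. The 2% trimmed mean was 500.3 on every array, so no further normalisation was applied. No pair of arrays shared more than 44 of 12488 values.

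Signals were analysed as log2(signal + 16), which understates changes of dim genes. Non-control probe sets with a mean log2 value above the 40th percentile (a signal of 91.7) were tested, 7453 in all. Ages were compared with limma 3.58.1 in R 4.3.3 (intensity trend, robust variance, Benjamini-Hochberg adjustment over all tested sets), two-sided, and the script was tested on simulated data. Correlations used 100000 permutations for 14 mice and all pairings for 9 (numpy 2.4.6, Python 3.11.15), two-sided. Alternatives were other pseudocounts, filters, quantile normalisation, covariates, the Mann-Whitney test and each mouse left out.

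Symbols came from the platform annotation. Symbols equal to Igk alone name the locus and not a segment, and their 3 sets were left out; the hyphen in Igh-VS107 was allowed. Each listed gene stood for its brightest set with 1 symbol. By rule, values were given for the immunoglobulin sets (those below the filter mostly as counts and ranges), the 2 tested members of lowest p per list and the 8 genes most like Ighm. Genes of the lists given below the filter, by name or with values, and further genes said to be so were chosen after their values were seen. The members and lists were chosen with earlier results of these data known. Replicate numbers only name mice, and the labels give no batch. No sequences of the immunoglobulin transcripts or probes were used here.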

Additional observations from a re-analysis of the deposited data

How the results depend on the processing

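The log2 age difference of Ighm stayed between 0.67 and 0.77 for the brighter set over 33 alternatives and between 0.28 and 0.44 for the dimmer set over 32, the latter dropping below the 60th-percentile filter. The count of other immunoglobulin sets called was 0 in each direction in all 34 alternatives. The main fit tested 11 such sets and called 0.376% of all tested sets, a share at which a count of 0 says little. The count of list members called was 4 without the filter and with a pseudocount of 64, as reported, and was taken in these 2 alternatives only. Of the 4 genes, Slc2a1 was lost in 4 of 23 fits with a mouse left out and in 1 of 11 other settings. With Ighm and its partners taken as residuals on the 25th percentile of each array, 1 of the 24 relations had an adjusted p under 0.05, that with Ighg3 at 2 months (r = -0.89, adjusted p = 0.0478), and the count was 0 in the other 26 alternatives. Over all probe sets the count called lower, 3, was 6 with the 60th-percentile filter, 5 with the meninges covariate, 8 with the Mann-Whitney test and 19 with the 25th-percentile covariate, and 2 to 7 with a mouse left out; the count called higher, 25, ran from 18 to 37. The number of arrays limits the precision, and for the dim J chain and lambda sets signal near background limits it further.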
